A study of Mus musculus with 2 samples.

Results

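Fatty acid uptake and oxidation were followed through 35 genes, listed by name for their roles and read by 48 detected probes on 2 arrays. The genes cover 9 roles, which run from uptake at the cell surface to the nuclear receptors that act on the pathway. They stand among 16660 named genes that were detected on at least 1 array. RNA came from the gastrocnemius, a mixed-fiber calf muscle, of male mice aged 25 weeks. One group was FOXO1-Tg, in which a FOXO1 transgene is overexpressed specifically in skeletal muscle, and the other was wild-type control. The promoter that drives the transgene is not given in the sources used here. RNA of 5 FOXO1-Tg mice and RNA of 6 wild-type mice were each pooled before labeling and hybridized to 1 array per pool. Each difference below therefore compares 1 pool with 1 pool, has no replicate check and carries no p-value, and the spread between mice cannot be seen.

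Skeletal muscle takes up fatty acids from circulating triglyceride after lipoprotein lipase has split it, and joins them to coenzyme A inside the fiber. The carnitine shuttle carries the acyl group into the mitochondrion, where a cycle of dehydrogenase, hydratase, dehydrogenase and thiolase steps shortens the chain and releases acetyl-CoA. Electron transfer flavoprotein passes electrons from the first step to the respiratory chain. PPARα and PPARδ, nuclear receptors that bind fatty acids, switch on many of these genes together with PGC-1 coactivators, and oxidative fibers hold more of the pathway than glycolytic ones.

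FOXO1-Tg muscle had lower scaled signals for most of the pathway, by small amounts. Of the 35 genes, 30 had a ratio below 0 (85.7%) when FOXO1-Tg was set over wild-type on the log2 scale, while 58.3% of all genes detected on both arrays did. Under other scalings of the arrays the number below 0 was 23 to 30. The median ratio of the 35 genes was -0.31 on the log2 scale (quartiles -0.43 and -0.08), against -0.07 for all 15493 such genes, and 27 of the 35 lay below the median of all genes. The ratios ran from -0.74 for Acot1, a cytosolic acyl-CoA thioesterase, to 0.76 for Ucp2, a mitochondrial uncoupling protein. All 35 genes were detected on both arrays.

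None of the 35 genes was more than 2-fold lower or more than 2-fold higher, and 3.86% and 4.2% of all detected genes were. At 1.5-fold, 1 gene was lower, Acot1, and 1 was higher, Ucp2, which is 2.86% each. Across all detected genes, 10.8% were more than 1.5-fold lower and 9.18% more than 1.5-fold higher, so calls past either fold were no more frequent here than on the arrays as a whole. Ucp3, Ppara and Acadm were 1.49, 1.49 and 1.48-fold lower in FOXO1-Tg muscle and so lay just inside that limit.

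For the median of the 35 genes the scanner error of the ratio was 0.20, which covers the array measurement and not mice, pooling or labeling. It was nearly the same for each of the 35 genes (0.204 to 0.209). A limit of 2 errors is therefore almost a fixed cut on their ratios and no precision measured gene by gene. Replicate spots, where a probe had them, spread less, with SDs of 0.005 to 0.054. Counted in scanner errors, 10 genes (28.6%) lay below 0 by more than 2 errors, while 14.3% of all genes detected on both arrays did. These were Acot1, Ucp3, Ppara, Acadm, Ech1, Hadha, Crat, Cpt2, Acat1 and Acadvl. Only Ucp2 and Cpt1a lay above 0 by more than 2 errors (5.71%), against 12.7% of all genes. These counts hold for the reported scaling, and with no scaling every ratio lies 0.13 higher. Of the 10 genes, only Acot1, Ucp3, Ppara and Acadm then lay below 0 by more than 2 errors. Slc27a1 then joined Ucp2 and Cpt1a on the higher side, at 0.42.

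**Figure D1:**
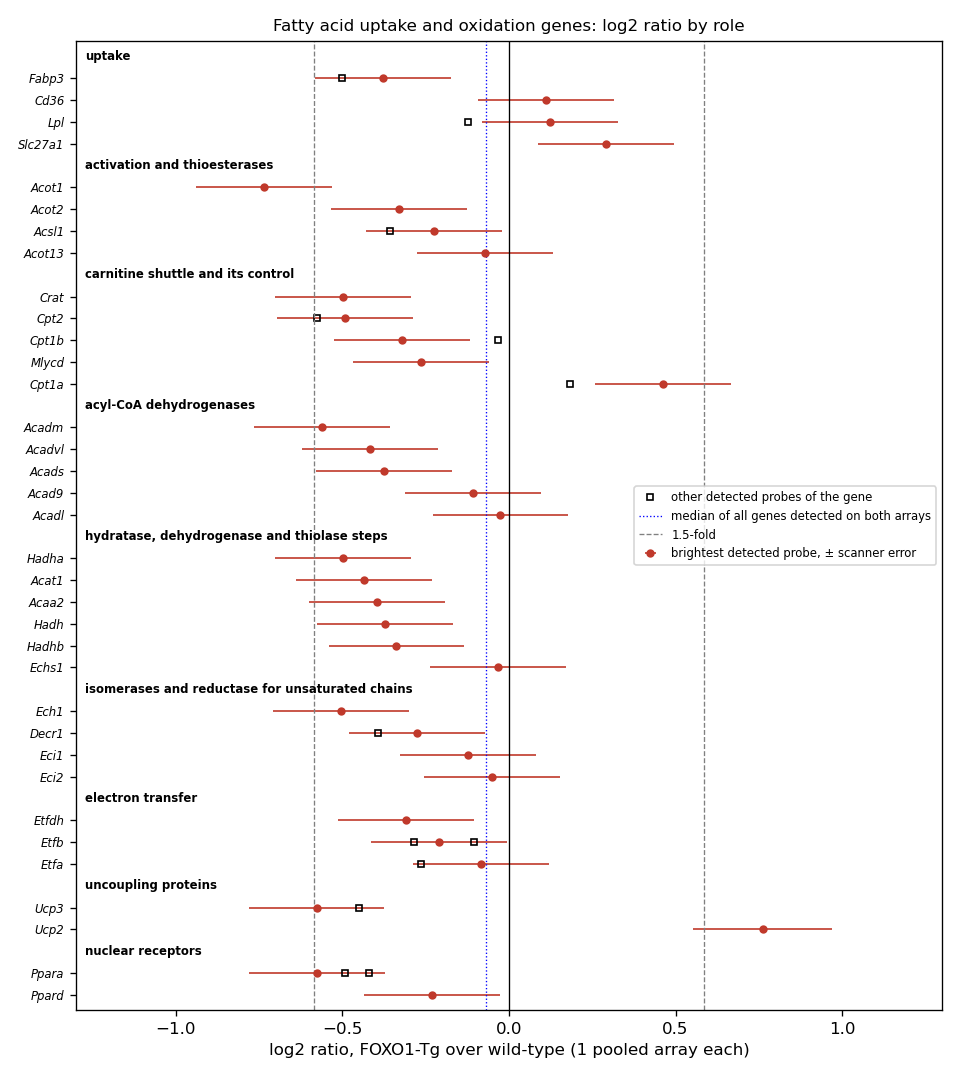
Log2 ratio (FOXO1-Tg divided by wild-type) for the 35 genes, grouped by role, with 1 pooled array per group. Filled points are the brightest detected probe with its scanner error, open squares are other detected probes of the gene, dashed lines mark 1.5-fold and the dotted line is the median of all genes. The points of 30 genes lie left of 0 at this scaling, and only Acot1 and Ucp2 lie outside the dashed lines.

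Many of these genes are abundant in muscle, so they were also set beside other bright genes at the reported scaling. In the brightest 25% of genes detected on both arrays, those with a mean signal of at least 5205, the median ratio was -0.11 and 66.8% of the 3874 genes lay below 0. Of the 25 pathway genes among them, 23 lay below 0 (92%), with a median of -0.28. Of the 25 genes, 6 (24%) were lower by more than 2 scanner errors, while 12.3% of the bright genes were. The median of the bright genes was 0.02 with no scaling, so the direction of the bright genes as a whole turns with the scaling. Leaving out the scaling shifts every ratio alike, so the distance between the 25 genes and the bright genes stays the same.

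**Figure D2:**
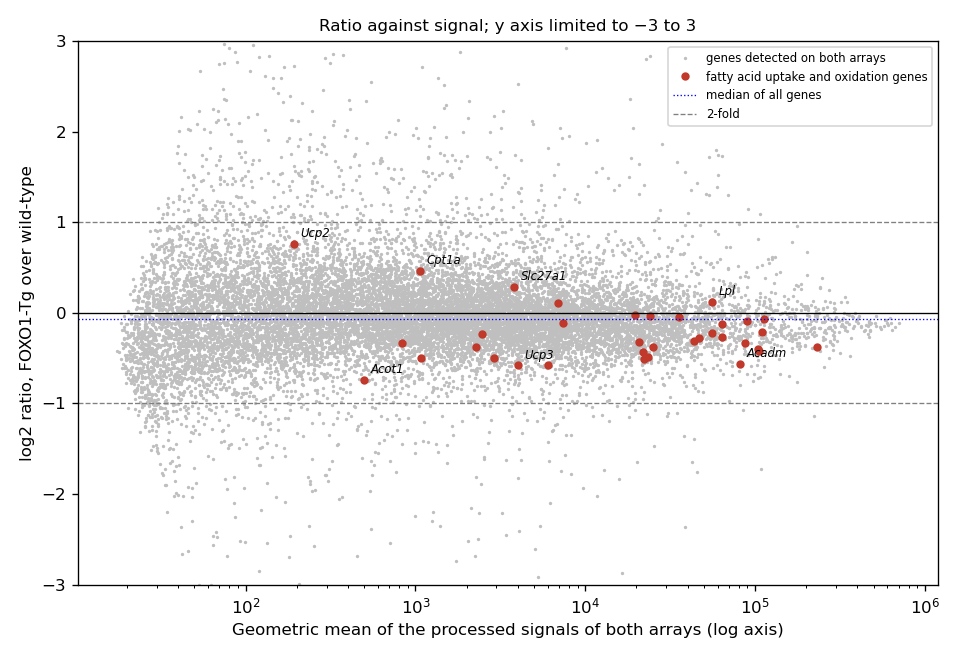
Log2 ratio (FOXO1-Tg divided by wild-type) against the geometric mean of both processed signals (log axis) for the genes detected on both arrays in grey and the 35 pathway genes in red. The vertical axis is limited, which leaves out 50 genes, and brightness does not rank different genes by RNA amount. Most red points lie at high signal and below the median line, inside the 2-fold lines.

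The labels and the sampled tissue were checked on the same arrays. The brighter Foxo1 probe had signals of 279457 in the FOXO1-Tg pool, against 4540 in the wild-type pool, a log2 ratio of 5.81. The other Foxo1 probe had 3188 in the FOXO1-Tg pool and 2853 in the wild-type pool (0.03), so the check rests on 1 probe. Each marker was read by its brightest probe. Fast fiber markers were close to level on these probes, with a median ratio of -0.11 (range -0.19 to 0.11). The highest of them, Mylpf, had 2 probes that differed by 0.78. Summed signals of the fast fiber markers were 3.65e+06 in FOXO1-Tg muscle and 3.62e+06 in wild-type muscle. Summed signals are not scaled between arrays. Slow fiber markers were lower, at a summed signal of 142427 in FOXO1-Tg muscle, against 390501 in wild-type muscle. Of 8 slow fiber markers, 7 were over 2-fold lower, with a median ratio of -1.44 (range -2.16 to -0.78). Adipocyte markers were higher, at a summed signal of 311613 in FOXO1-Tg muscle, against 105653 in wild-type muscle, and 10 of 12 were more than 2-fold higher (median 1.82, range 0.76 to 2.88). The 10 endothelial markers lay between -0.32 and -0.14, and the 8 macrophage markers between 0.07 and 0.51. The 3 probes of Itgam, the lowest macrophage marker, differed by 0.76, and the 2 probes of the adipocyte marker Adrb3 by 1.46. Every marker of the 5 lists was detected on both arrays, so none was at background. In whole muscle, fewer cells of a type and less RNA per cell cannot be told apart. How far fiber type and fat cells take part in the ratios of the pathway genes was not tested.

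Uptake genes were mixed, and none lay above 0 by more than 2 scanner errors at the reported scaling. Of the 4 genes, 3 had ratios above 0, and the median was 0.12, while 58.3% of all genes detected on both arrays lay below 0. Slc27a1, the fatty acid transport protein FATP1, had signals of 4428 in the FOXO1-Tg pool and 3310 in the wild-type pool, a log2 ratio of 0.29 with an error of 0.20. Lpl, lipoprotein lipase, had 60835 in the FOXO1-Tg pool and 51088 in the wild-type pool (0.12). Its other probe had 25751 in the FOXO1-Tg pool and 25625 in the wild-type pool (-0.12), and Lpl was the only gene of the pathway whose probes fell on both sides of 0. Cd36, a membrane protein that takes up fatty acids, had 7548 in the FOXO1-Tg pool and 6387 in the wild-type pool (0.11). The ratios of Lpl and Cd36 were smaller than their scanner errors, and both genes are also made by adipocytes, whose markers were higher in the same pool. Fabp3, the cytosolic fatty acid binding protein of heart and muscle, lay on the lower side, with 210964 in the FOXO1-Tg pool and 250678 in the wild-type pool (-0.38). Its other probe gave -0.50.

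Activation and thioester hydrolysis followed the lower side in 4 of 4 genes (median -0.28), where 58.3% of all genes detected on both arrays lay below 0. Acot13 changed sign under some other scalings. Acsl1, the main long-chain acyl-CoA synthetase of muscle, gave -0.23, with signals of 54114 in the FOXO1-Tg pool and 57823 in the wild-type pool, and its other probe gave -0.36. Acot1 had the lowest ratio of the pathway, with signals of 403 in the FOXO1-Tg pool and 613 in the wild-type pool (-0.74, error 0.20). Acot2, the mitochondrial relative of Acot1, had 782 in the FOXO1-Tg pool and 899 in the wild-type pool (-0.33). The genes lie next to each other on chromosome 12 with 0 protein-coding genes between them. They are close copies, and whether each probe reads its own gene alone was not tested. Their ratios differed by -0.41 (Acot1 minus Acot2), with a scanner error of 0.29 for the difference. Acot13, another mitochondrial thioesterase, was near level at -0.07.

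The isoforms of the carnitine shuttle differed on their brightest probes. Cpt1b, the muscle isoform of the outer membrane enzyme that commits long chains to oxidation, had signals of 19365 in the FOXO1-Tg pool and 22122 in the wild-type pool (-0.32), and its other probe gave -0.03. Cpt1a, the isoform best known from liver, had 1309 in the FOXO1-Tg pool and 868 in the wild-type pool, a log2 ratio of 0.46 with an error of 0.20. The Cpt1a ratio stood 0.78 above that of Cpt1b on the brightest probes, with a scanner error of 0.29 for the difference. The distance was 0.50 on the median over the probes of each gene, and 0.22, less than the error, between their other probes. The genes lie on different chromosomes, 19 for Cpt1a and 15 for Cpt1b.

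The Cpt1a probe was printed 10 times on each array, and 9 spots were used. They ran from 1273 to 1338 in the FOXO1-Tg pool (median 1312), against 816 to 902 in the wild-type pool (median 885). The ratio of single spots ranged from 0.37 to 0.52 (SD 0.05). These spots repeat the array reading of the same labeled RNA and are not biological replicates. The other Cpt1a probe gave 150 in the FOXO1-Tg pool and 121 in the wild-type pool (0.18).

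**Figure D3:**
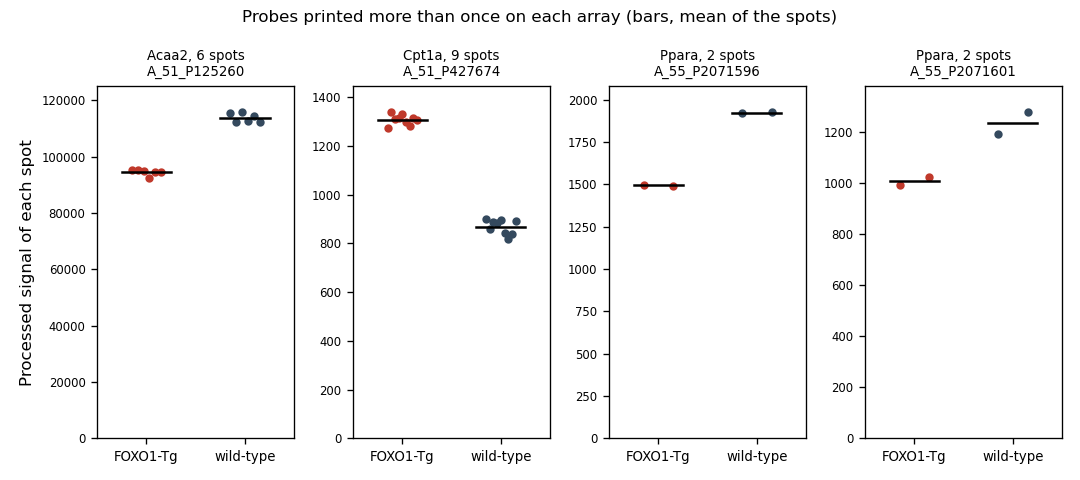
Processed signal of each used spot for the 4 probes of the pathway that were printed more than once, with FOXO1-Tg left of wild-type, a bar at the mean and axes that start at 0. Spots of Cpt1a are higher in FOXO1-Tg, and spots of Acaa2 and of both Ppara probes are lower. Signals are not scaled between arrays, and spots repeat the reading of the same labeled RNA.

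The 250 bases before the start of Cpt1a (RefSeq, GRCm38.p6, chr19:3323051-3323300, plus strand) are shown because it is the gene of the shuttle that went against the others. Capitals mark the Sp1 motif GGGGCGGGG, found here as its reverse complement, 77 to 69 and 61 to 53 bases before the start.
Cpt1a: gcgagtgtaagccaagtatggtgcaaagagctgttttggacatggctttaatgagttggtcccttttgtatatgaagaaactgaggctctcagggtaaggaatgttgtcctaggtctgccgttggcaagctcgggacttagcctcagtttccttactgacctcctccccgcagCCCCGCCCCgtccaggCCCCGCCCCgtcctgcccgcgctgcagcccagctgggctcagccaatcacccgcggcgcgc

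The other shuttle genes were on the lower side. Cpt2, which returns the acyl group to coenzyme A inside the mitochondrion, had signals of 20711 in the FOXO1-Tg pool and 26637 in the wild-type pool (-0.49), and its other probe gave -0.58. Crat, which exchanges short acyl groups with carnitine, had 950 in the FOXO1-Tg pool and 1226 in the wild-type pool (-0.50). Mlycd breaks down malonyl-CoA, the inhibitor of the outer membrane enzymes, and gave -0.26.

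The acyl-CoA dehydrogenases, which take the first step of each cycle, had ratios below 0 in 5 of 5 genes (median -0.38). Of all genes detected on both arrays, 58.3% lay below 0. Acadl and Acad9 changed sign under some other scalings. Acadm, the medium-chain enzyme MCAD and a classic target of PPAR and PGC-1 regulation, had signals of 69659 in the FOXO1-Tg pool and 93957 in the wild-type pool (-0.56, error 0.20). Acadvl, the very-long-chain enzyme, had 94757 in the FOXO1-Tg pool and 115774 in the wild-type pool (-0.42). Acads, the short-chain enzyme, had 2098 in the FOXO1-Tg pool and 2487 in the wild-type pool (-0.38). Acadl, the long-chain enzyme, was level within its error, with 20463 in the FOXO1-Tg pool and 19042 in the wild-type pool (-0.03). Acad9, which also serves in the assembly of respiratory complex I, gave -0.11. The ratio of Acadm was lower than that of Acadl by 0.54 on the log2 scale (Acadm minus Acadl, -0.54), with a scanner error of 0.29 for the difference.

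The 250 bases before the start of Acadm (RefSeq, GRCm38.p6, chr3:153944644-153944893, minus strand) are shown because nuclear receptors are known to act on this gene. Capitals mark the receptor motif AAGGTCA, found as its reverse complement 249 to 243 bases before the start.
Acadm: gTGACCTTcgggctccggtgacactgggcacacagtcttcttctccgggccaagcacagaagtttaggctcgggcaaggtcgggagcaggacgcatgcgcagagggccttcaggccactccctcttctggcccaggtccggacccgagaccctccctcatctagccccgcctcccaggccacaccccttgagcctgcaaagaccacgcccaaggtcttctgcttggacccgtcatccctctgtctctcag

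The later steps of the cycle were on the lower side in 6 of 6 genes (median -0.39), against 58.3% of all genes detected on both arrays. Echs1 changed sign under some other scalings. Hadha and Hadhb encode the subunits of the mitochondrial trifunctional protein, which handles long chains, and are neighbors on chromosome 5. Hadha had signals of 2566 in the FOXO1-Tg pool and 3313 in the wild-type pool (-0.50), and Hadhb had 81569 in the FOXO1-Tg pool and 94245 in the wild-type pool (-0.34). The subunits differed by -0.16 (Hadha minus Hadhb), less than the scanner error of 0.29. Hadh, the hydroxyacyl-CoA dehydrogenase for shorter chains, gave -0.37, and Acat1, the thiolase that also acts on ketone bodies, gave -0.44. Acaa2, the main thiolase of the matrix, was read by 6 used spots, which ran from 92324 to 95264 in the FOXO1-Tg pool, against 112210 to 115760 in the wild-type pool. Its ratio was -0.40 with an SD of 0.02 over the spots, which are not biological replicates. Echs1, the hydratase for short chains, was near level at -0.03.

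Enzymes that prepare unsaturated chains gave ratios below 0 in 4 of 4 genes (median -0.20), against 66.8% of the brightest 25% of genes. Of the 4, Eci2 changed sign under some other scalings and Eci1 only with no scaling, at 0.01. Ech1, a dienoyl-CoA isomerase, had signals of 19501 in the FOXO1-Tg pool and 25292 in the wild-type pool (-0.50). Decr1, the dienoyl-CoA reductase, gave -0.28, and its other probe gave -0.39. The enoyl-CoA isomerases were close to 0, with -0.12 for Eci1 and -0.05 for Eci2. Electron transfer genes were below 0 in 3 of 3 (median -0.21), again against 66.8% of the brightest genes, and none by more than 2 scanner errors. Etfa changed sign under some other scalings. Etfdh, which hands the electrons to ubiquinone, gave -0.31, Etfb gave -0.21 and Etfa gave -0.08. The flavoprotein subunits Etfa and Etfb differed by 0.12, or 0.03 on the median over probes, less than the scanner error of 0.29.

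**Figure D4:**
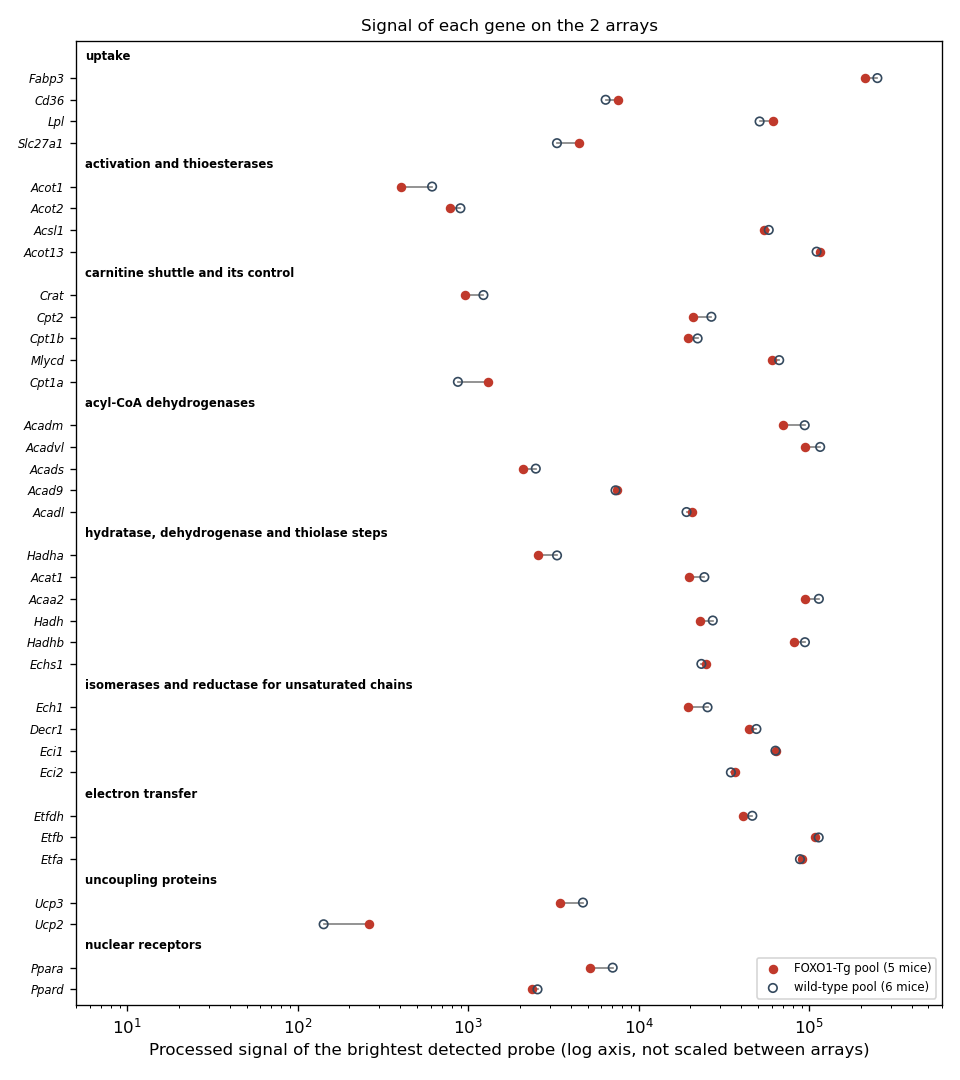
Processed signal of the brightest detected probe of each of the 35 genes in the FOXO1-Tg pool (filled) and the wild-type pool (open) on a log axis, grouped by role and not scaled between arrays. The 75th percentile signal was 844 on the FOXO1-Tg array and 771 on the wild-type array, so a gene at a scaled ratio of 0 has its filled point slightly to the right, and rows are not to be ranked against each other.

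The uncoupling proteins went opposite ways. Ucp3, the muscle isoform, whose RNA is known to follow fatty acid supply, had signals of 3445 in the FOXO1-Tg pool and 4701 in the wild-type pool (-0.58, error 0.20), and its other probe gave -0.45. Ucp2, the broadly expressed isoform, had 263 in the FOXO1-Tg pool and 142 in the wild-type pool (0.76, error 0.21). The ratio of Ucp2 stood 1.34 above that of Ucp3, with a scanner error of 0.29 for the difference, the largest among the 6 gene pairs compared. Ucp2 is also abundant in macrophages, whose 8 markers had ratios of 0.07 to 0.51 (median 0.31), and in adipose tissue. Their part in the Ucp2 ratio was not tested.

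Ucp2 and Ucp3 are neighbors on chromosome 7 with 0 protein-coding genes between them, and the 250 bases before each start are shown because adjacent genes differed in direction. Both lie on the plus strand of GRCm38.p6 (RefSeq), at chr7:100493108-100493357 for Ucp2 and chr7:100472741-100472990 for Ucp3. G and C made up 63.6% of the Ucp2 window and 54.8% of the Ucp3 window, and neither held any of the 4 motifs searched, so no base is in capitals.
Ucp2: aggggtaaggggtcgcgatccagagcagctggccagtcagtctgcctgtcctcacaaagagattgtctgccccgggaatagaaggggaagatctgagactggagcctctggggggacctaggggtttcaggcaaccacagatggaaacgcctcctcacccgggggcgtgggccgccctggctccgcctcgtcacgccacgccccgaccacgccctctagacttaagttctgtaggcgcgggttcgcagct
Ucp3: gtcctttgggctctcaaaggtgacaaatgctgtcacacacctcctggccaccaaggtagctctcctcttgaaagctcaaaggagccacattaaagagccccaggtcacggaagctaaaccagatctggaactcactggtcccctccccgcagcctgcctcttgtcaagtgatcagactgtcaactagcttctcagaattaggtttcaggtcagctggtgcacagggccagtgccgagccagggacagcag

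Both nuclear receptors were on the lower side, as were 58.3% of all genes detected on both arrays. Ppara was read by 3 probes, which gave -0.58, -0.49 and -0.42. On the brightest of them signals were 5157 in the FOXO1-Tg pool and 7027 in the wild-type pool, with an error of 0.20. Ppard, the receptor that predominates in muscle, had 2371 in the FOXO1-Tg pool and 2545 in the wild-type pool (-0.23), a ratio near its scanner error.

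Where a gene had several detected probes, their ratios differed about as much as in other genes. The gap between probes had a median of 0.16, against 0.18 for all genes with several detected probes, and was at most 0.29, in Cpt1b. In 10 of 11 such genes of the pathway all probes had the same sign, and the matching share over all genes was not computed. Over all 48 probes, 42 had ratios below 0, against 59.3% of all named probes detected on both arrays.

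Promoter windows of 250 bases were given for 27 of the 35 genes, as 30 windows, in a RefSeq table of GRCm38.p6. They were searched on both strands for 4 motifs. The nuclear receptor motif AAGGTCA was in 1 of the 30 windows, that of Acadm, and in 4.08% of the windows of all genes. The FOXO motif known as the Daf16 binding element, TTGTTTAC or TTATTTAC, was in 0 of the 30 windows and in 2.06% of all windows. The insulin response element, TTGTTTTG or TTATTTTG, was in 0 of the 30 windows and in 3.63% of all windows. The Sp1 motif GGGGCGGGG was in 8 of the 30 windows and in 10.4% of all windows. The genes with it were Hadh, Acads, Acsl1, Eci2, Eci1 and Ppard on the lower side and Slc27a1 and Cpt1a on the higher side. The Daf16 and insulin response motifs begin with the same letters and were counted apart, and a match describes the letters of this window only.

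Genes around the pathway were read through 96 other genes in 7 lists, of which 95 were detected. Of the 93 detected on both arrays, 59 had ratios below 0, with a median of -0.09, close to the -0.07 and 58.3% of all genes. Of the 95, 3 were more than 2-fold lower and 3 more than 2-fold higher, and at 1.5-fold 8 were lower and 10 were higher. Over all detected genes the shares were 3.86% and 4.2% at 2-fold and 10.8% and 9.18% at 1.5-fold, so these lists as a whole stood near the background. The counts below 0 hold for the reported scaling, and with no scaling every ratio lies 0.13 higher.

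Peroxisomal oxidation shortens very long chains outside the mitochondrion. Of its 19 genes, 17 had ratios below 0, against 58.3% of all genes detected on both arrays. The median of the 19 was -0.14, against -0.11 for the brightest 25% of genes. The lowest was Pex11a, which promotes division of peroxisomes, with signals of 8475 in the FOXO1-Tg pool and 11731 in the wild-type pool (-0.60). No other gene of this list was lower by more than 2 scanner errors. Ehhadh, the bifunctional enzyme, followed at -0.35. Decr2, the peroxisomal reductase, was highest at 0.43. Carnitine supply was mixed, with 3 of 5 genes detected on both arrays below 0, against 58.3% of all such genes. Slc25a20, the carrier that exchanges acylcarnitine for carnitine across the inner membrane, had 2494 in the FOXO1-Tg pool and 3753 in the wild-type pool (-0.72). Slc22a5, the carnitine importer of the cell membrane, gave -0.48. Cpt1c, the brain isoform, gave 0.45 at signals of 131 in the FOXO1-Tg pool and 87.7 in the wild-type pool. Bbox1, the last enzyme of carnitine synthesis, was not well above background in the wild-type pool and gave a bound of 0.38 on the log2 scale. Its signals were 24.9 in the FOXO1-Tg pool and 16.2 in the wild-type pool. The scanner error of 0.49 was larger than the bound.

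Triglyceride breakdown and the partners of lipoprotein lipase ran the other way, with 4 of 13 genes below 0 and a median of 0.20. Of all genes detected on both arrays, 58.3% lay below 0. Without Lipe, which is also an adipocyte marker, and Gpihbp1, an endothelial marker, 3 of 11 lay below 0 and the median was again 0.20. The 12 adipocyte markers were higher in the same pool (median 1.82), and their part in this list was not tested. Angptl4, a secreted inhibitor of lipoprotein lipase, had signals of 11643 in the FOXO1-Tg pool and 3699 in the wild-type pool (1.52). Plin3, a lipid droplet coat protein, had 19213 in the FOXO1-Tg pool and 9596 in the wild-type pool (0.87). Plin5, the droplet protein of oxidative tissue, was lowest of this list at -0.47, and G0s2, an inhibitor of adipose triglyceride lipase, gave -0.36. Among other synthetases, thioesterases and binding proteins, 8 of 16 genes detected on both arrays lay below 0, against 58.3% of all such genes. Acsl6 (-0.68) and Acsl3 (-0.38), both long-chain acyl-CoA synthetases, were lowest. Acot9, a mitochondrial thioesterase, gave 0.63, and Fabp4, the adipocyte fatty acid binding protein, gave 0.98. Fabp4 is also 1 of the 12 adipocyte markers.

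Among genes of malonyl-CoA and fuel choice, 4 of 8 lay below 0, against 58.3% of all genes detected on both arrays. Prkag3, a muscle subunit of AMP-activated kinase, had signals of 4300 in the FOXO1-Tg pool and 7034 in the wild-type pool (-0.84), and Pdk1, a kinase that inhibits pyruvate dehydrogenase, gave -0.45. Pdk4, the isoform induced by fasting and by fatty acids, had 153441 in the FOXO1-Tg pool and 92850 in the wild-type pool (0.60). Acaca, an acetyl-CoA carboxylase that makes malonyl-CoA, gave 0.77 on its brightest probe, but its 3 probes differed by 1.55. In the list of ketone body and other acyl-CoA enzymes, 11 of 16 lay below 0, against 58.3% of all genes detected on both arrays. Bdh1, which oxidizes the ketone body 3-hydroxybutyrate, had 5157 in the FOXO1-Tg pool and 10494 in the wild-type pool (-1.15), and Ivd, of leucine breakdown, gave -0.35. Acadsb, of isoleucine breakdown, gave 0.54.

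Coactivators and receptors that act on these genes had ratios below 0 in 12 of 16 (median -0.25), against 58.3% of all genes detected on both arrays. Ppargc1b, which encodes the coactivator PGC-1β, had signals of 378 in the FOXO1-Tg pool and 791 in the wild-type pool (-1.20). Rxrg, a muscle partner of the PPARs on DNA, had 21808 in the FOXO1-Tg pool and 42870 in the wild-type pool (-1.10). Pparg, the adipocyte receptor and also an adipocyte marker here, gave 1.03, and Lpin1, a coactivator and phosphatidate phosphatase, gave 0.54.

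The size of the shift depended on how the arrays were set level. Under other scalings the median of the 35 genes lay between -0.29 and -0.18. Scalings that shift every gene alike cannot change the distance to the median of all genes, which was -0.24. Methods that can change it gave -0.22 with quantile normalization, -0.23 with cyclic loess and -0.23 with normexp and quantile normalization. Under every alternative 23 genes stayed below 0 and 5 stayed above 0. Eci1, Acad9, Etfa, Acot13, Eci2, Echs1 and Acadl changed sign under at least 1 alternative.

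**Figure D5:**
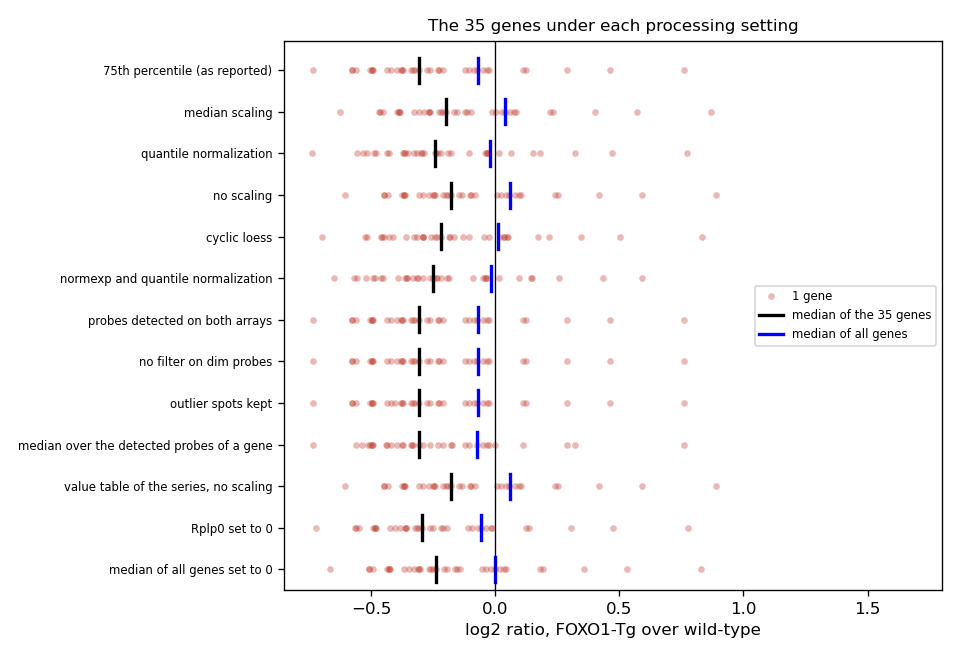
Log2 ratio (FOXO1-Tg divided by wild-type) of the 35 genes under the reported setting, at the top, and 12 alternatives, with 1 point per gene. Black bars are the median of the 35 genes and blue bars the median of all genes detected on both arrays. The black bar lies 0.22 to 0.24 to the left of the blue one in each row, a distance that is fixed wherever a setting shifts all genes alike.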

How the data were processed

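RNA of 2 pools, 1 per genotype, was measured on 2 Agilent 1-color arrays. The authors deposited intensity values, the background-subtracted processed signals that Agilent Feature Extraction writes (11.0.1.1 per the file headers, 9.5 in the submitters' processing notes), with no scaling. Their value table repeats these signals (largest difference 0). Both arrays share slide and scan.

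Here log2 signals were set relative to the 75th percentile of each array over 59305 non-control spots. Spots with an outlier flag (237) were left out, and spots of a probe were averaged on the log2 scale. Detection of a probe required a share of 0.5 or more of its spots well above background, with 65.8% of spots so called for FOXO1-Tg and 65.5% for wild-type, and none saturated. The array design uses mm9. Probes were named through unversioned transcripts in a RefSeq table of GRCm38.p6 (28331 of 55681 probes, 21368 genes), from which only names, chromosomes and gene order were taken. A gene was read by its brightest detected probe. A gene detected on 1 array only was given a bound, against the higher of its own signal and the lowest signal well above background on the other array. The scanner error combines the relative errors of both signals in quadrature.

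Since each group has 1 array, no test was made. Genes were counted past 2-fold and 1.5-fold, below 0 and beyond 2 scanner errors. The precision is limited by the number of arrays. Both signals were given for Acadm, for the 6 lowest and 6 highest genes and for others where useful, and the 2 lowest and 2 highest genes of each other list were named, except some that are not reported here. The members and lists were chosen with earlier results of these data known. The procedure was tested on simulated data. Alternatives were 5 other scalings, normexp background correction (offset 50, on median spot signals), 2 other dim-probe filters, no removal of outlier spots, other rules for several probes, the deposited value table, and all-gene centering, which was added after seeing the data. Python 3.11.15, numpy 2.4.6, pandas 2.3.3, R 4.3.3 and limma 3.58.1 were used. Other experiments of the study were not analysed here.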

Additional observations from a re-analysis of the deposited data

How the results depend on the processing

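Single genes moved by at most 0.17 under quantile normalization, cyclic loess, normexp with quantile normalization and the median over probes, less than the scanner error. The other scalings shift every gene alike, and the filters on dim probes could not change these genes. The number of genes more than 1.5-fold higher was 1 as reported and 2 with no scaling and with the deposited value table, since Cpt1a then reached 0.59. With no scaling every log2 ratio shifts by 0.13, and 42.6% of all genes lay below 0 in place of 58.3%. The direction of ratios near 0 therefore depends on the scaling. No replicate could be left out. No paired analysis was possible because there is 1 pooled array for either genotype. The scanner error was highest for Ucp2, at 0.209, and 0.204 at the lowest, and covers neither mice nor labeling.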
